A study of Mus musculus with 20 samples.

Results

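Liver transcriptomes of high-fat diet (HFD) fed mice exposed to Aroclor 1260 were compared with those of HFD control mice, using 10 of the 20 libraries of the series (5 HFD + Aroclor and 5 HFD control). All of these animals were male C57BL/6J mice that ate a diet with 42% of its calories from fat from 8 weeks of age. At 10 weeks of age they received 1 oral gavage, of Aroclor 1260 at 20 mg/kg or of the corn oil vehicle. The labels give 12 weeks of treatment, and the study's methods give 12 weeks of diet with tissue collected 10 weeks after the gavage. The other 10 libraries came from mice given PCB 126 at 20 µg/kg, with or without Aroclor 1260 at 20 mg/kg, on the same diet (HFD + PCB 126 and HFD + Aroclor + PCB 126). No group ate a control diet, so each difference given here was measured on top of the HFD. Of the 21780 genes in the count table, 15522 had at least 10 counts over the 20 libraries and were tested. Genes and pathways other than those of RNA modification are described.

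Aroclor 1260 is a commercial mixture of highly chlorinated biphenyls, most of which lack dioxin-like activity. Non-dioxin-like PCBs are known to act in liver through the constitutive androstane receptor (CAR, Nr1i3) and the pregnane X receptor (PXR, Nr1i2), which turn on cytochrome P450 genes of the 2b, 2c and 3a families. Dioxin-like congeners such as PCB 126 instead activate the aryl hydrocarbon receptor (AhR), whose best known targets are Cyp1a1 and Cyp1a2. PCBs persist in fatty tissue for long after a single dose, and the study asked how such an exposure alters a liver already under the stress of a fatty diet.

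The total count per library was 21836506 to 36854887 in HFD control and 31265022 to 35611837 in HFD + Aroclor, and levels are given in CPM, the count of a gene scaled to its library's total after TMM normalization. HFD control replicate 4 stood apart. Its median correlation with the other control libraries was 0.930, against at least 0.971 for each of the other 9 libraries, and 308 of 11396 genes with a mean of 1 CPM or more lay 2-fold or more outside the range of the other control mice, against 10 to 65 genes for the other 9 libraries. This library held transcripts of the adrenal gland and skeletal muscle. The summed level of 10 adrenal cortex genes was 2270 CPM in it, 1960 CPM in HFD + Aroclor + PCB 126 replicate 4 and at most 4.65 CPM in the other 18 libraries. Cyp11b1, which makes corticosterone, was at 229 CPM in it, at 220 CPM in HFD + Aroclor + PCB 126 replicate 4 and at most 0.141 CPM elsewhere. The muscle actin gene Acta1 was at 12.1 CPM in this control library and at most 0.117 CPM in all others. The sum of 12 hepatocyte genes was 109651 to 116448 CPM in HFD control and 99444 to 124457 CPM in HFD + Aroclor, so hepatocyte transcripts were abundant in each of these 10 libraries. This sum cannot show whether other tissue was present, since HFD control replicate 4 had the highest control sum. Which step brought adrenal transcripts into 2 libraries was not tested, and values below are given with and without HFD control replicate 4 where leaving it out moved them by over 1.5 times.

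Aroclor 1260 gave differences that were mostly small beside the spread between mice. No gene passed an adjusted p under 0.05 in edgeR's quasi-likelihood test with Benjamini-Hochberg adjustment (0 of 15522, 0%), and the smallest adjusted p was 0.116. Leaving out HFD control replicate 4 also gave 0 genes, with a smallest adjusted p of 0.106. At an unadjusted p under 0.05, 1497 genes (9.64%) were higher and 1180 genes (7.6%) were lower with Aroclor. Without HFD control replicate 4 these were 1603 (10.4%) and 1078 (7.01%). The DESeq2 Wald test called 135 genes (0.87%) at an adjusted p under 0.05, 98 higher and 37 lower, and all 135 had an unadjusted p under 0.05 in edgeR. The 5 exposed mice were all above the 5 control mice for 270 genes (1.74%) and all below them for 187 genes (1.2%). Among the 11396 genes with a mean of 1 CPM or more, 79.2% had a log2 fold change (log2FC) between -0.34 and 0.34, 150 genes (1.32%) lay beyond 1 in either direction, and the median standard error was 0.15 on the log2 scale. The edgeR p-values, standard errors and confidence intervals rest on the spread within groups over all 20 libraries, those of the PCB 126 groups included.

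Transcript GC content moved with the groups. A library's slope of log2 level on GC content, per 10 percentage points, averaged 0.234 ± 0.131 in HFD control and -0.00075 ± 0.0736 in HFD + Aroclor (SD, n = 5 each, exact permutation test over all splits of 5 mice against 5, two-sided, p = 0.0159). The median GC content was 44.3% for the genes higher at an unadjusted p under 0.05, 54.2% for the lower ones and 50.2% for all tested genes. Among genes with a mean of 1 CPM or more and 40 to 45% GC, 27.7% were higher and 1.43% lower, whereas among genes with 55 to 60% GC, 0.73% were higher and 13.9% lower. After a smooth GC trend was removed from each library, 870 genes (5.6%) were higher and 1352 (8.71%) lower at an unadjusted p under 0.05, and 1529 genes kept their direction and an unadjusted p under 0.05 in both fits. The part of GC-linked library differences in any single gene's value was not tested, so the GC-corrected value stands beside the values below where it differed by over 1.5 times.

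**Figure D1:**
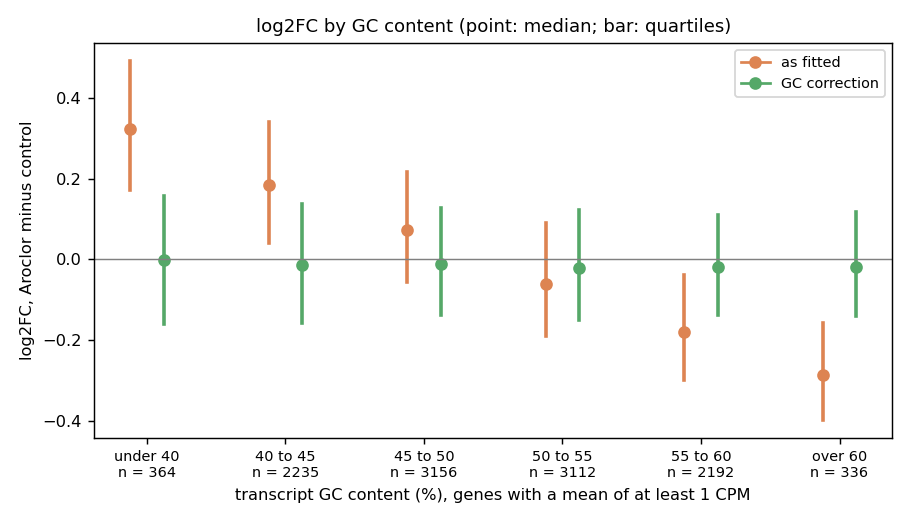
Differences between HFD + Aroclor and HFD control by transcript GC content, with the median log2FC (point) and its quartiles (bar) over genes with a mean of 1 CPM or more in each bin of GC content in percent, as fitted (orange) and after GC correction (green). The median log2FC runs from 0.32 in genes under 40% GC to -0.29 in genes over 60% GC before correction.

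The 12 higher and 12 lower genes with the smallest p were taken from genes that averaged 1 CPM or more and did not overlap between the groups, so the lack of overlap is a condition and not a result. The gene with the smallest p was Fign, a microtubule-severing ATPase (ENSMUSG00000075324, GRCm38 chromosome 2, 63971507 to 64098038, minus strand). Its levels were 4.89, 3.57, 4.46, 3.64 and 3.01 CPM in HFD control mice 1 to 5 and 8.91, 6.36, 7.14, 9.42 and 8.46 CPM in HFD + Aroclor mice 1 to 5. The lowest exposed mouse lay above the highest control mouse, with a log2FC of 1.04 ± 0.17 (SE, n = 5 each; edgeR adjusted p = 0.116; DESeq2 adjusted p = 0.000105). The difference was 0.83 after GC correction and 1.01 without HFD control replicate 4. Katnal1, a katanin-like protein that also acts on microtubules, had a log2FC of 0.60 ± 0.11, although its span overlaps that of Gm42791.

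Ppargc1a encodes PGC-1α, the coactivator that drives mitochondrial biogenesis and the fasting programme of the liver. It was at 5.56, 5.73, 4.88, 4.56 and 5.80 CPM in control mice and at 9.44, 7.38, 7.60, 8.82 and 9.04 CPM in HFD + Aroclor. All exposed mice were above all control mice, by a log2FC of 0.67 ± 0.14 (edgeR adjusted p = 0.184), and 0.52 after GC correction. Tfrc, the transferrin receptor through which cells take up iron, was at 14, 20.8, 23, 18.6 and 24.5 CPM in control mice and at 34.9, 30.3, 25.4, 52.7 and 39.5 CPM in HFD + Aroclor. The lowest exposed mouse was close to the highest control mouse, and the log2FC was 0.86 ± 0.19, or 0.54 after GC correction. Prps2, which makes the ribose donor of nucleotide synthesis, was at 11.4 to 14.3 CPM in HFD control and 18 to 21.0 CPM in HFD + Aroclor (log2FC 0.65 ± 0.14).

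Signalling genes on the higher side included the tyrosine kinase Frk (log2FC 0.90), the protein kinase C gene Prkca (0.60, with a span that overlaps Apoh), the Arf6 regulator Acap2 (0.63) and the dendritic cell receptor Ly75 (0.94). Crebrf, a regulator of the stress transcription factor CREB3, had a log2FC of 0.50 that was 0.25 after GC correction. Lrif1, a heterochromatin protein that binds nuclear receptors, had a log2FC of 0.52 that was 0.13 after GC correction. The largest log2FC values among higher genes without overlap belonged to genes under 10 CPM. They were Olfm3, an olfactomedin (1.32), the condensin II subunit gene Ncapg2 (1.18), Fign, Tnfrsf14, which encodes the immune receptor HVEM (1.04), and Pla2g4a, the cytosolic phospholipase A2 that frees arachidonic acid (0.99).

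On the lower side, the chromatin scaffold gene Safb was at 37.3, 38.8, 37.4, 38.5 and 38.9 CPM in control mice and at 25.3, 22.3, 31.1, 30.1 and 29.5 CPM in HFD + Aroclor. The control mice lay within a narrow range above every exposed mouse, and the log2FC was -0.47 ± 0.12 (edgeR adjusted p = 0.184). Zscan21, a zinc finger transcription factor, had a log2FC of -0.50 and the smallest p of the lower genes. Mettl6 (-0.43) and Tut1 (-0.62) encode enzymes that act on RNA but are not on the study's RNA modification list, and Mettl6 overlaps Eaf1. Znrd1, a subunit of RNA polymerase I, had a log2FC of -0.39, and Ppan, needed for ribosome assembly, was at 7.13 to 9.74 CPM in control mice and 3.03 to 5.17 CPM in exposed mice. Others were the tetraspanin Tspan33 (-0.78), the growth hormone regulated gene Grtp1 (-0.49, overlapping Lamp1), the mitochondrial import chaperone Timm9 (-0.33, overlapping Tomm20l) and the zinc finger genes Zfp623 (-0.53), Zfp235 (-0.46) and Zfp771 (-0.81, or -0.49 after GC correction).

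The largest lower values were Cbarp, Osgin1, Ppan, Adrb3 and Dlg4. Cbarp, which regulates calcium channels, had a log2FC of -1.55, or -0.95 without HFD control replicate 4, where it was at 5.18 CPM against 0.989 to 2.04 CPM in the other control mice, and its span overlaps Atp5d and Stk11. Dlg4, which encodes the synaptic scaffold PSD-95, had a log2FC of -0.87, or -0.55 without that library (edgeR adjusted p = 0.375). Osgin1, an NRF2 target linked to oxidative stress, was at 44.8, 36.3, 39.8, 58.9 and 77.6 CPM in control mice and at 11.4, 12.8, 35.7, 26.2 and 22 CPM in HFD + Aroclor. The exposed mice were all lower, by a log2FC of -1.25 ± 0.46 (edgeR adjusted p = 0.217).

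**Figure D2:**
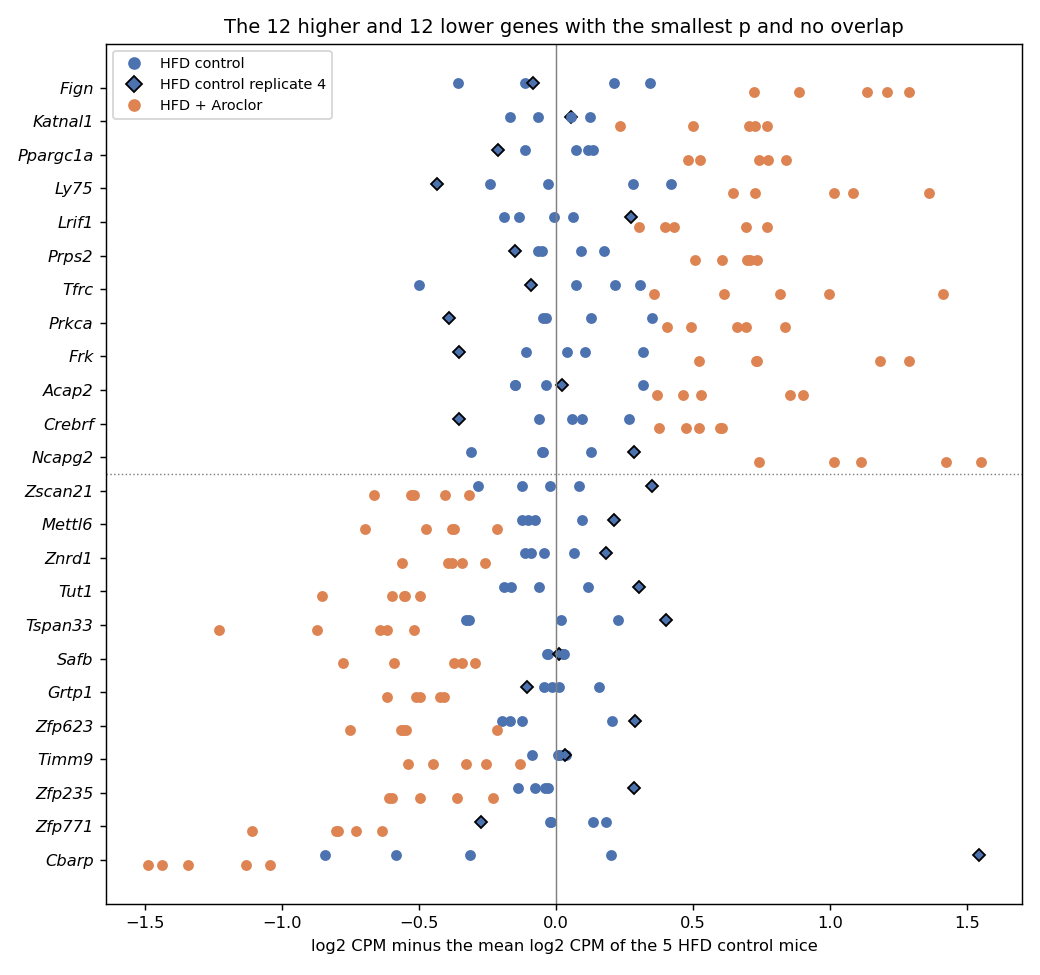
The 12 higher and 12 lower genes with the smallest unadjusted p, as log2 level in each mouse relative to the HFD control mean, with a diamond for HFD control replicate 4. The groups do not overlap because that was a condition for inclusion, and the fitted log2FC runs from -1.55 for Cbarp to 1.18 for Ncapg2.

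The CAR and PXR target genes leaned to the higher side, with values that varied several-fold between mice. Of 36 tested targets, 7 were higher and 1 lower at an unadjusted p under 0.05 and 31 had a log2FC above 0, with a median log2FC of 0.30 against -0.01 for all tested genes. After GC correction the counts were 1 higher and 1 lower with a median of 0.11, so this list leans less once GC content is accounted for, and its median GC content is 44.4%. Without HFD control replicate 4 they were 5 higher and 1 lower, with a median of 0.25, and with both changes the median was -0.01. The median of the members' log2 levels relative to the control mean ran from -0.45 to 0.27 over the control mice and from -0.08 to 0.57 over the exposed mice. Cyp2b10, the classic CAR target, was at 2.33, 6.48, 1.94, 0.351 and 6.62 CPM in control mice and at 14, 30.7, 2.89, 6.64 and 15.7 CPM in HFD + Aroclor. Exposed mice 1, 2 and 5 were more than 2-fold above every control mouse, exposed mouse 4 lay next to the highest control mouse, and exposed mouse 3 lay within the control range. The log2FC was 1.97 ± 0.75 (edgeR adjusted p = 0.222), 1.96 after GC correction and 1.69 without HFD control replicate 4 (edgeR adjusted p = 0.255).

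Aldh1a1, the retinal dehydrogenase and a CAR target, was at 2717, 2864, 2828, 1413 and 2126 CPM in control mice and at 3693, 3043, 3337, 2936 and 3167 CPM in HFD + Aroclor. The groups did not overlap, and the log2FC was 0.44 ± 0.16, or 0.24 after GC correction. Cyp3a11, the main PXR target, was at 1893 to 3394 CPM in HFD control and 1749 to 4749 CPM in HFD + Aroclor. Its log2FC was 0.35 ± 0.23 (edgeR adjusted p = 0.417), with overlapping groups, and it was 0.07 after GC correction. Cyp2c55 had a log2FC of 0.65 with overlapping groups, which was 0.36 after GC correction and 0.42 without HFD control replicate 4. The glutathione transferase gene Gstm3 had one of 0.76, also with overlap, which was 0.46 without that library. The receptors themselves differed by less than their spread, with a log2FC of -0.15 ± 0.23 for Nr1i3, which overlaps Tomm40l, and -0.03 ± 0.12 for Nr1i2. After GC correction these were -0.07 and 0.03, and without HFD control replicate 4 they were -0.32 and -0.13. Among the other receptors on the list of 16, Esr1, which encodes the estrogen receptor α, was at 9.95, 6.02, 13.2, 10.4 and 12.7 CPM in control mice and at 14, 18.5, 23.1, 20 and 16.4 CPM in HFD + Aroclor. The exposed mice were all above the control mice (log2FC 0.82 ± 0.26, edgeR adjusted p = 0.195).

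Few AhR targets passed the unadjusted threshold, although most had a log2FC above 0. Of 17 tested targets, 1 was higher and 0 lower at an unadjusted p under 0.05 by edgeR, and 0 were past that p in either direction after GC correction, without HFD control replicate 4 or with both changes. A log2FC above 0 was found for 12 of the 17, and the median was 0.09, or 0.05 after GC correction, 0.21 without HFD control replicate 4 and 0.255 with both. The median of the members' log2 levels relative to the control mean was -0.23 to 0.22 in control mice and 0.22 to 0.37 in exposed mice, with the highest control mouse next to the lowest exposed one. Cyp1a1 was at 0.940, 0.799, 0.458, 0.219 and 0.645 CPM in control mice and at 0.898, 1.23, 0.838, 0.737 and 0.922 CPM in HFD + Aroclor. These are low levels that overlapped, with a log2FC of 0.53, a 95% confidence interval from -1.79 to 2.84, and a log2FC of 0.34 without HFD control replicate 4. That interval also holds the spread of the PCB 126 groups, so its width is not that of these 10 mice alone. Cyp1a2 averaged 387 ± 99.4 CPM in HFD control and 385 ± 76.2 CPM in HFD + Aroclor (SD, n = 5 each), with a log2FC of -0.01, a 95% confidence interval from -0.48 to 0.47, and a log2FC of 0.02 after GC correction and -0.13 without HFD control replicate 4. Tiparp (log2FC 0.62, or 0.39 after GC correction), Ahrr (0.04, or -0.02) and Cyp1b1 (-0.28) overlapped between groups, and without HFD control replicate 4 Ahrr was at 0.71 and Cyp1b1 at 0.63. The receptor gene Ahr had a log2FC of 0.49 ± 0.27 (edgeR adjusted p = 0.334). Nqo1, shared by the AhR and NRF2 pathways, had a log2FC of 0.30, which was 0.17 after GC correction and 0.14 without HFD control replicate 4. Of 21 NRF2 targets 2 were higher, including the glutathione synthesis gene Gclm (0.31, or 0.18 after GC correction), and 1, Osgin1, was lower, and after GC correction 0 were higher and 1 lower at that p in edgeR.

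Set against the dioxin-like congener, Cyp1a1 and Cyp1a2 differed, but not all of the AhR genes named above. Ahrr (log2FC 0.27), Cyp1b1 (-0.60), Nqo1 (-0.13) and Ahr (-0.35) had an unadjusted p above 0.05 in edgeR for HFD + PCB 126 minus HFD + Aroclor. Between HFD + PCB 126 and HFD + Aroclor, 4 genes (0.0258% of those tested) passed an adjusted p under 0.05 in edgeR, and 1 of them belongs to the RNA modification list. Cyp1a2 averaged 1590 ± 606 CPM in HFD + PCB 126 (SD, n = 5), a log2FC of 2.05 above HFD + Aroclor (edgeR adjusted p = 0.000445). Cyp1a1 was at 4.09 to 314 CPM in HFD + PCB 126 and at no more than 1.23 CPM in HFD + Aroclor (log2FC 6.40, edgeR adjusted p = 0.0218). Slc46a3, a lysosomal transporter known as an AhR target, had a log2FC of 1.08 in the same direction (edgeR adjusted p = 0.0218).

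**Figure D3:**
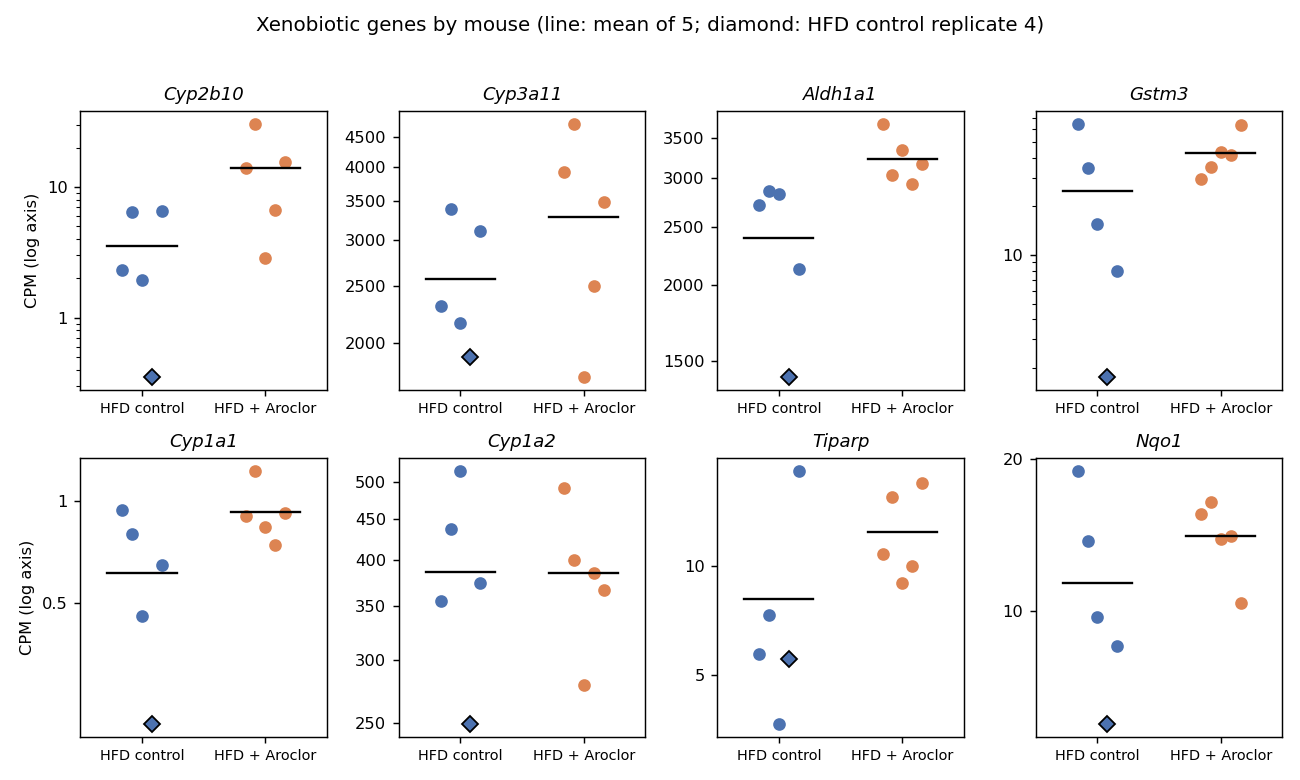
Levels in CPM on log axes of 4 CAR or PXR responsive genes (Cyp2b10, Cyp3a11, Aldh1a1 and Gstm3) and 4 AhR or NRF2 responsive genes (Cyp1a1, Cyp1a2, Tiparp and Nqo1) in each mouse, with a line at the mean of the 5 mice and a diamond for HFD control replicate 4. Aldh1a1 is the only one of the 8 in which the groups do not overlap.

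Heat shock genes had lower means with Aroclor, and control mice 3, 4 and 5 were the high ones. Heat shock proteins are chaperones, and the inducible members are transcribed by HSF1 when proteins unfold. Of 20 tested genes, 0 were higher and 8 were lower at an unadjusted p under 0.05 by edgeR, against 9.64% and 7.6% of all genes, and 18 had a log2FC below 0, with a median of -0.33. GC correction gave 9 lower and a median of -0.34. Without HFD control replicate 4 the count was 2 lower and the median -0.21. Dnajb1, an HSP40 cochaperone, was at 19.7, 20.3, 49.5, 135 and 83.8 CPM in control mice and at 18.2, 17.5, 30.9, 25 and 25.9 CPM in HFD + Aroclor. Control mice 1 and 2 lay within the exposed range and control mice 3, 4 and 5 above it. The log2FC was -1.39 ± 0.38 (edgeR adjusted p = 0.184), and -0.88 without HFD control replicate 4 (edgeR adjusted p = 0.221). The cochaperone Bag3 had a log2FC of -0.90 and the constitutive chaperone Hspa8 one of -0.60, both chosen after their values were seen, with the same control mice high.

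Hspa1a, the stress-induced HSP70, was at 0.418, 1.20, 3.89, 25.5 and 4.26 CPM in control mice and at 0.532, 0.321, 1.56, 0.901 and 1.14 CPM in HFD + Aroclor. HFD control replicate 4 stood far above all others, and the log2FC was -2.96 ± 0.89 with it and -1.42 without it (edgeR adjusted p = 0.314). Hspa1a and Hspa1b are near-identical neighbouring copies, so the split of reads between them is uncertain, and Hspa1a overlaps Gm20481. The promoters of the pair of heat shock genes with the smallest p are shown because these genes share a known regulator. The search was for GAANNTTC, the core of a heat shock element, which is its own reverse complement, so both strands are covered. It is in the 250 bases before the start site of 6.69% of 32851 RefSeq promoters of GRCm38.p6, and in 6 of the 14 list members that had a promoter in that table. Of the 8 lower members, 6 had a promoter and 3 of these held the motif (Hspa1a, Hspa1b and Hspb1). The first is shown for its motif and the second as a gene without it. Each sequence runs 5′ to 3′ on the strand of its gene and ends at the base before the start site, with the motif in capitals.
Hspa1a (chr17:34972157-34972406, minus strand): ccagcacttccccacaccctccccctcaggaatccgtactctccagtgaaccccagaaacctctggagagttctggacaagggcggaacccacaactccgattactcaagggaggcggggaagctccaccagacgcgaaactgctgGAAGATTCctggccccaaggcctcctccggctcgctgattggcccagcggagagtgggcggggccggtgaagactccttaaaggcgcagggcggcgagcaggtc
Dnajb1 (chr8:83607925-83608174, plus strand): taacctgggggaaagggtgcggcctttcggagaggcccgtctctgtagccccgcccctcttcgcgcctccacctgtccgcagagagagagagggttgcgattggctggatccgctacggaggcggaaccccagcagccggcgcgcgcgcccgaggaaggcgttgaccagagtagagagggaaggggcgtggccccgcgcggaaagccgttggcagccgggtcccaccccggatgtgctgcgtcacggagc
The motif starts 104 bases before the start site of Hspa1a and is not among these bases of Dnajb1. A match is a string of letters and not a measured binding site.

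Genes of the male growth hormone programme were also lower in mean. Pulsed growth hormone in male mice keeps a set of liver genes high, through STAT5, while Bcl6 is a repressor that competes with STAT5. Of 27 tested growth hormone and sex-biased genes, 2 were higher and 6 lower at an unadjusted p under 0.05, with a median log2FC of -0.28. The counts were 1 and 7 after GC correction and 2 and 5 without HFD control replicate 4, where the median was -0.22. Elovl3, a male-biased fatty acid elongase, was at 157, 235, 193, 403 and 339 CPM in control mice and at 144, 131, 147, 149 and 203 CPM in HFD + Aroclor. Only exposed mouse 5 reached the control range, and the log2FC was -0.78 ± 0.21 (edgeR adjusted p = 0.184), although Elovl3 overlaps Pitx3.

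Hsd3b5, a male-specific steroid enzyme, was at 41.0, 76.0, 175, 239 and 149 CPM in control mice and at 77.4, 44.5, 16.4, 64.5 and 29.5 CPM in HFD + Aroclor. Control mice 1 and 2 lay within the exposed range and the other control mice above it, as for the heat shock genes, and the log2FC was -1.55 ± 0.55. Mup1, a major urinary protein chosen after its values were seen and one of a large family with near-identical copies, had a log2FC of -1.63. Cyp7b1, which hydroxylates oxysterols, had a log2FC of -1.06, or -0.49 without HFD control replicate 4 (edgeR adjusted p = 0.491).

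Bcl6 stood on the other side. It was at 13.4, 20.9, 22.4, 12.0 and 12.0 CPM in control mice and at 60, 44.0, 21.0, 81.3 and 63.6 CPM in HFD + Aroclor. All exposed mice except mouse 3 were above every control mouse, by a log2FC of 1.74 ± 0.55 (edgeR adjusted p = 0.195), and 1.65 without HFD control replicate 4. The Bcl6 span overlaps Gm37419. Jak2, the kinase of the growth hormone receptor, had a log2FC of 0.36 and 0.19 after GC correction. Egfr, the epidermal growth factor receptor, ranged from 57.7 to 753 CPM in HFD control and from 115 to 304 CPM in HFD + Aroclor, with a log2FC of -0.97 ± 0.53 (edgeR adjusted p = 0.335), or -0.65 without HFD control replicate 4. Within the EGFR pathway list of 38 genes, 5 were higher, among them the ligand gene Btc (0.57, or 0.29 after GC correction) and the adaptor gene Gab1 (0.29), and 1, Map2k2 (-0.48, or -0.29), was lower. The counts were 2 higher and 1 lower after GC correction and 7 and 2 without HFD control replicate 4.

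**Figure D4:**
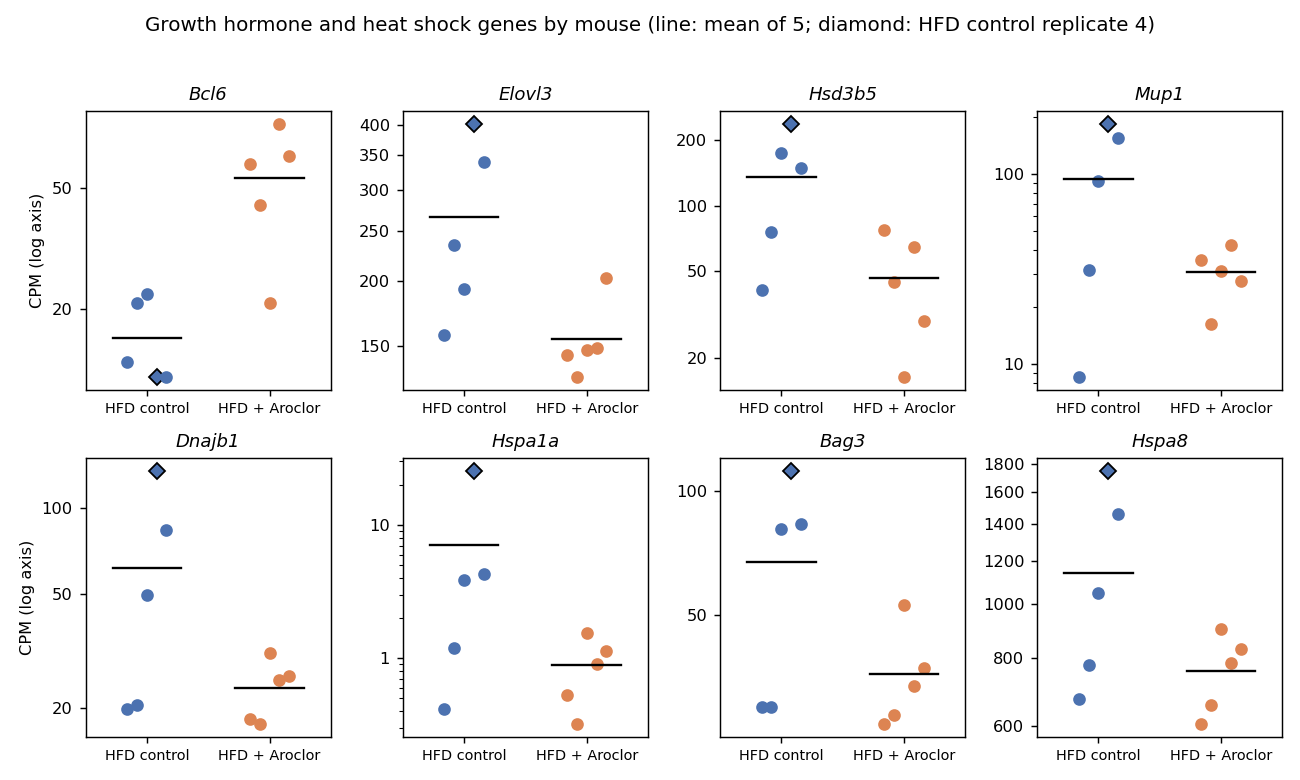
Levels in CPM of growth hormone responsive genes (Bcl6, Elovl3, Hsd3b5 and Mup1) and heat shock genes (Dnajb1, Hspa1a, Bag3 and Hspa8) in each mouse, on log axes, with a line at the mean of the 5 mice and a diamond for HFD control replicate 4. Dnajb1 and Hsd3b5 are low in control mice 1 and 2 as well as in the exposed mice, whereas Bcl6 is above every control mouse in 4 of the 5 exposed mice.

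Several lists of lipid and glucose genes had shares near the 9.64% higher and 7.6% lower of all tested genes. The shares were 7.69% and 2.56% for PPARα and fatty acid oxidation and 8.7% and 4.35% for de novo lipogenesis. They were 13% and 8.7% for lipid droplet and steatosis genes and 12.5% and 4.17% for glucose metabolism, so no lean of these lists is read from them. Of 39 genes of PPARα and fatty acid oxidation, 3 were higher and 1 lower at an unadjusted p under 0.05, with a median log2FC of -0.02, and the counts were 3 and 2 after GC correction and 2 and 2 without HFD control replicate 4. Cd36, the fatty acid translocase, was at 206, 244, 307, 136 and 226 CPM in control mice and at 413, 305, 295, 397 and 427 CPM in HFD + Aroclor. Exposed mice 2 and 3 lay just under control mouse 3 and the other exposed mice above every control mouse, with a log2FC of 0.71 ± 0.20 (edgeR adjusted p = 0.184) that was 0.36 after GC correction. Ppara itself, the fasting sensor and one of the receptors, had a log2FC of 0.71 with exposed mice at 58.8 to 173 CPM and control mice at 40.2 to 95.6 CPM. Angptl4, a PPARα target that inhibits lipoprotein lipase, had a lower mean, at 113 to 232 CPM in HFD control and 91.8 to 125 CPM in HFD + Aroclor (log2FC -0.70 ± 0.21). In de novo lipogenesis, 2 of 23 were higher, Scd1 (0.52, or 0.34 without HFD control replicate 4) and Gpam (0.78), and 1, the triglyceride synthesis gene Dgat1 (-0.24, or -0.14 after GC correction), was lower. The counts there were 1 and 0 after GC correction and 2 and 2 without HFD control replicate 4. Of 23 lipid droplet and steatosis genes, 3 were higher and 2 lower, and the lower ones were the fat cell genes Plin1 and Fabp4, with 1 and 2 after GC correction and 2 and 1 without HFD control replicate 4.

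Some fat cell genes had lower means, with the highest value in HFD control replicate 4. Plin1, which coats the lipid droplets of fat cells, was at 8.07 CPM in that library and at most 1.03 CPM in the other control mice, and its log2FC was -4.00 with it and -1.93 without it (edgeR adjusted p = 0.476). Fabp4, a fatty acid carrier of fat cells, was at 168 CPM in it against 22.8 to 32.5 CPM in the other control mice, and its log2FC was -1.23 with it and -0.21 without it. The fat cell hormone Adipoq had a log2FC of -3.53 with it and -1.98 without it (edgeR adjusted p = 0.427). Control mice 3 and 5 were also above every exposed mouse for Plin1 and Adipoq. The adipocyte list of 6 went from 3 to 1 lower genes when the library was left out. Its members did not all go one way, since Cfd, which encodes adipsin and was picked after its values were seen, was lowest in HFD control replicate 4, at 28.4 CPM against 89.8 to 245 CPM in the other control mice and 30.3 to 124 CPM in the exposed mice. The sum of the 6 was 1393 CPM in that library, with a control median of 4063 CPM, and 2661 to 5533 CPM in the exposed mice. Plin1, Adipoq and Cfd were a minor part of each sum, at no more than 8.07, 11.4 and 245 CPM, so it does not track them. Of 8 brown adipocyte genes, 7 were highest in HFD control replicate 4. Among them, Ucp1 was at 28.6 CPM there and at most 0.483 CPM in the 18 libraries without adrenal transcripts. The sum of the 8 was 91.9 CPM there and 45.7 to 101 CPM in those 18.

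Among 30 genes of cholesterol synthesis and uptake, 7 were higher and 0 lower at an unadjusted p under 0.05 by edgeR, while 16 had a log2FC above 0 and the median was 0.04. The higher ones included Sc5d, a late step of synthesis, at 267 to 344 CPM in exposed mice and lower in every control mouse (log2FC 0.32, or 0.14 after GC correction). After GC correction 4 members were higher and 1 lower, and without HFD control replicate 4 these were 6 and 1. In bile acid synthesis and transport, 4 of 22 were higher and 1, Cyp7b1, was lower, with 2 and 3 after GC correction and 3 and 1 without HFD control replicate 4. Akr1d1, a reductase of bile acid synthesis, had a log2FC of 0.82, and the transporter gene Abcb1a one of 0.95. The glucose transporter gene Slc2a2 (GLUT2) was at 182 to 316 CPM in HFD control and 296 to 475 CPM in HFD + Aroclor (log2FC 0.69 ± 0.18, edgeR adjusted p = 0.184). In the glucose list of 24, 3 were higher, including the insulin receptor gene Insr (0.29, or 0.17 after GC correction), and 1, the glycolytic regulator Pfkfb3 (-0.95), was lower, with 1 and 2 after GC correction and 2 and 2 without HFD control replicate 4.

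Transcripts of inflammation, matrix and macrophages had higher means. Of 39 fibrosis and matrix genes, 9 were higher and 0 lower at an unadjusted p under 0.05 by edgeR, 7 and 0 after GC correction and 8 and 0 without HFD control replicate 4, with medians of 0.19, 0.19 and 0.20. Tgfbr2, a receptor of the profibrotic cytokine TGF-β, was at 30.8, 33.6, 34.2, 27.9 and 26.9 CPM in control mice and at 50.8, 40.8, 37.4, 38.3 and 45.9 CPM in HFD + Aroclor. The groups did not overlap, and the log2FC was 0.47 ± 0.11 with and without GC correction (edgeR adjusted p = 0.184). Its partner Tgfbr1 had a log2FC of 0.53. Spp1, the matrix protein osteopontin, was at 61.0 to 67.3 CPM in HFD control and 68.9 to 120 CPM in HFD + Aroclor (log2FC 0.53), and the matrix proteoglycan genes Lum and Dcn had a log2FC of 0.65 and 0.48, or 0.42 and 0.16 after GC correction.

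Of 26 inflammation genes, 5 were higher and 1, the NF-κB inhibitor Nfkbia (-0.44), was lower, with a median of 0.28. The counts were 2 and 2 after GC correction, 3 and 1 without HFD control replicate 4 and 1 and 1 with both, where the median was 0.07. Cxcl9, a chemokine that draws T cells, had a log2FC of 0.95, with 52.0 CPM in exposed mouse 2 and 11.8 to 27.2 CPM in the other exposed mice against 7.81 to 20.5 CPM in HFD control. Adgre1, which encodes the macrophage antigen F4/80, was at 6.32, 15.5, 12.9, 9.34 and 12.9 CPM in control mice and at 14.9, 27.0, 17.3, 18.7 and 24.0 CPM in HFD + Aroclor. Exposed mouse 1 lay just under control mouse 2 and the other exposed mice above all control mice (log2FC 0.84 ± 0.27, edgeR adjusted p = 0.195). Cd68, another macrophage gene, had a log2FC of 0.27 ± 0.23 with overlapping groups. The pan-leukocyte gene Ptprc (CD45) had a log2FC of 0.67, or 0.36 after GC correction.

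Marker sums of macrophages and stellate cells had higher medians with Aroclor, with ranges that overlapped between the groups. The sum of 12 endothelial markers had a lower median, at 242 CPM against 287 CPM in HFD control. Of these markers, 0 were past an unadjusted p under 0.05 in edgeR. The sum of 12 Kupffer cell and macrophage markers was 336 to 713 CPM (median 439) in HFD control and 417 to 813 CPM (median 556) in HFD + Aroclor, and that of 12 stellate cell and fibroblast markers was 281 to 526 CPM (median 475) and 432 to 601 CPM (median 573). HFD control replicate 4 had the lowest control sum in both. Of the Kupffer cell markers 1 was higher and 0 were lower, and of the stellate cell markers 5 were higher and 0 lower, at an unadjusted p under 0.05 by edgeR. For the stellate cell markers 2 were higher after GC correction, 2 without HFD control replicate 4 and 0 with both changes, and the median log2FC was 0.36 at first and 0.16, 0.25 and 0.05 in these fits. In liver tissue, more cells of a type and more RNA per cell cannot be told apart.

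Interferon-stimulated and MHC genes were high in 1 exposed mouse. Of 31 interferon-stimulated genes, 7 were higher, among them the viral RNA sensor Ddx58 (0.29, or 0.15 after GC correction), and 1, Ifi27 (-0.34), was lower, and the counts were 3 and 1 after GC correction and 6 and 0 without HFD control replicate 4. The guanylate-binding protein gene Gbp2 was at 5.98 to 11.6 CPM in control mice and at 33.8 CPM in exposed mouse 2, with 8.73 to 13.7 CPM in the other exposed mice (log2FC 0.94). The MHC class II gene H2-Aa was likewise at 158 CPM in exposed mouse 2, against 41.8 to 77.6 CPM in the other exposed mice and 37.1 to 73.5 CPM in HFD control (log2FC 0.69). Of 19 MHC genes, 2 were higher and 0 lower at an unadjusted p under 0.05 in edgeR, with a median of 0.07. After GC correction 7 were higher and 0 lower, with a median of 0.23, against 5.6% and 8.71% of all tested genes. Without HFD control replicate 4 the counts were 1 and 0. With both changes they were 5 and 1, with a median of 0.21. Exposed mouse 3 was instead the high one for acute phase genes. Lcn2, which binds bacterial siderophores, was at 455 CPM in it and at no more than 57.9 CPM in the other 9 mice, and the pentraxin gene Apcs was at 418 CPM in it and 68.8 to 101 CPM in the others. Of 26 acute phase genes, 2 were higher, with this mouse highest in both, and 1, Ahsg (-0.29), was lower, and without HFD control replicate 4 the counts were 0 and 1 in edgeR.

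Nuclear genes of oxidative phosphorylation leaned to the lower side, most in exposed mice 4 and 5. Of 75 tested genes, 67 had a log2FC below 0, against 8043 of all 15522 genes, and the median was -0.20. The median of the members' log2 levels relative to the control mean was 0.20, 0.03, 0.12, -0.20 and -0.11 in control mice 1 to 5 and -0.08, 0.08, -0.12, -0.43 and -0.49 in exposed mice 1 to 5. Exposed mice 4 and 5 were below every control mouse, exposed mice 1 and 3 lay within the control range, and exposed mouse 2 lay above 3 of the control mice. At an unadjusted p under 0.05, 1 was higher and 3 were lower, after GC correction 0 and 9, and without HFD control replicate 4 these were 1 and 19, with 24 lower when GC correction was added. Ndufs7, a subunit of complex I, was at 48.6, 34.7, 50.7, 24.9 and 39.4 CPM in control mice and at 23.2, 29.4, 29.4, 28.8 and 22.7 CPM in HFD + Aroclor. The 4 other control mice were above every exposed mouse and HFD control replicate 4 lay among them (log2FC -0.57 ± 0.24, or -0.36 after GC correction and -0.70 without that library). Ndufs1, the largest subunit of complex I, was the higher member (0.27, or 0.11 after GC correction, with a span that overlaps Eef1b2). The same exposed mice were low for the proteasome subunit genes, at -0.29 and -0.24 relative to the control mean as the median of the members, against -0.04 to -0.02 in exposed mice 1 to 3 and -0.02 to 0.03 in control mice. There, 31 of 37 had a log2FC below 0 with a median of -0.10, and 0 were higher and 3 lower at an unadjusted p under 0.05 by edgeR, or 12 lower after GC correction and 5 without HFD control replicate 4. Psmd4, the ubiquitin receptor of the proteasome, was at 144 to 163 CPM in HFD control and 107 to 138 CPM in HFD + Aroclor without overlap (log2FC -0.35).

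The zinc finger genes Zfp700 to Zfp999, many of which encode KRAB-type repressors of transposable elements, leaned to opposite sides before and after GC correction. Of 111 tested, 23 were higher and 9 lower with a median of 0.14, and after GC correction 8 were higher and 18 lower with a median of -0.07. Their median GC content was 41.4%. Zfp931 had a log2FC of 0.75, or 0.34 after correction, and Zfp946 one of 0.59, or 0.20.

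List counts for Aroclor against control, those above included, are read against the share of all genes in the same fit. With all libraries these shares were 9.64% higher and 7.6% lower. They were 5.6% and 8.71% after GC correction and 10.4% and 7.01% without HFD control replicate 4. With both changes, 696 genes were higher and 991 lower of 15376 tested. With all libraries, the integrated stress response gene Ddit3 (CHOP) was the single member of 29 ER stress genes past an unadjusted p under 0.05 in edgeR. Its level was 4.79 to 12.7 CPM in HFD control and 2.29 to 6.18 CPM in HFD + Aroclor (log2FC -1.03 ± 0.29, overlapping Mars). Of 21 circadian clock genes, 3 were higher, including the repressor gene Nr1d2 (0.40, or 0.23 after GC correction) and Hlf (0.46), a clock-controlled transcription factor, and 0 were lower by edgeR. Nr3c1, the glucocorticoid receptor gene, had a log2FC of 0.47, while its target Tsc22d3 had one of -0.55. Of 30 cell cycle genes, 6 (20%) were higher and 0 lower by edgeR, including the replication helicase gene Mcm4 (0.31, or 0.15 after GC correction) and the cyclin gene Ccne2 (0.73, or 0.35, overlapping Ints8), and 2 were higher after GC correction and 3 without HFD control replicate 4. Of 36 genes of pyrimidine nucleotide metabolism, 5 were higher, including the kinase genes Dck (0.60, or 0.38 after GC correction) and Cmpk1 (0.37, or 0.16), and 1, Nme6 (-0.28), was lower, with 2 and 1 after GC correction and 7 and 2 without HFD control replicate 4. Pericentral and periportal zonation genes each had 4 higher and 0 lower members by edgeR, of 21 (19%) and 23 (17.4%), with Lgr5 (0.40, overlapping A930009A15Rik) on the first list and Aldh1b1 (0.54) on the second. After GC correction the pericentral counts were 3 and 0 and the periportal ones 2 and 1, and without HFD control replicate 4 they were 4 and 2, and 2 and 1. Complement and coagulation genes had 1 higher, Pros1 (0.33, or 0.15 after GC correction), and 1 lower, Proc (-0.36, or -0.22), of 37, with 0 and 1 after GC correction and 3 and 4 without HFD control replicate 4 in edgeR.

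**Figure D5:**
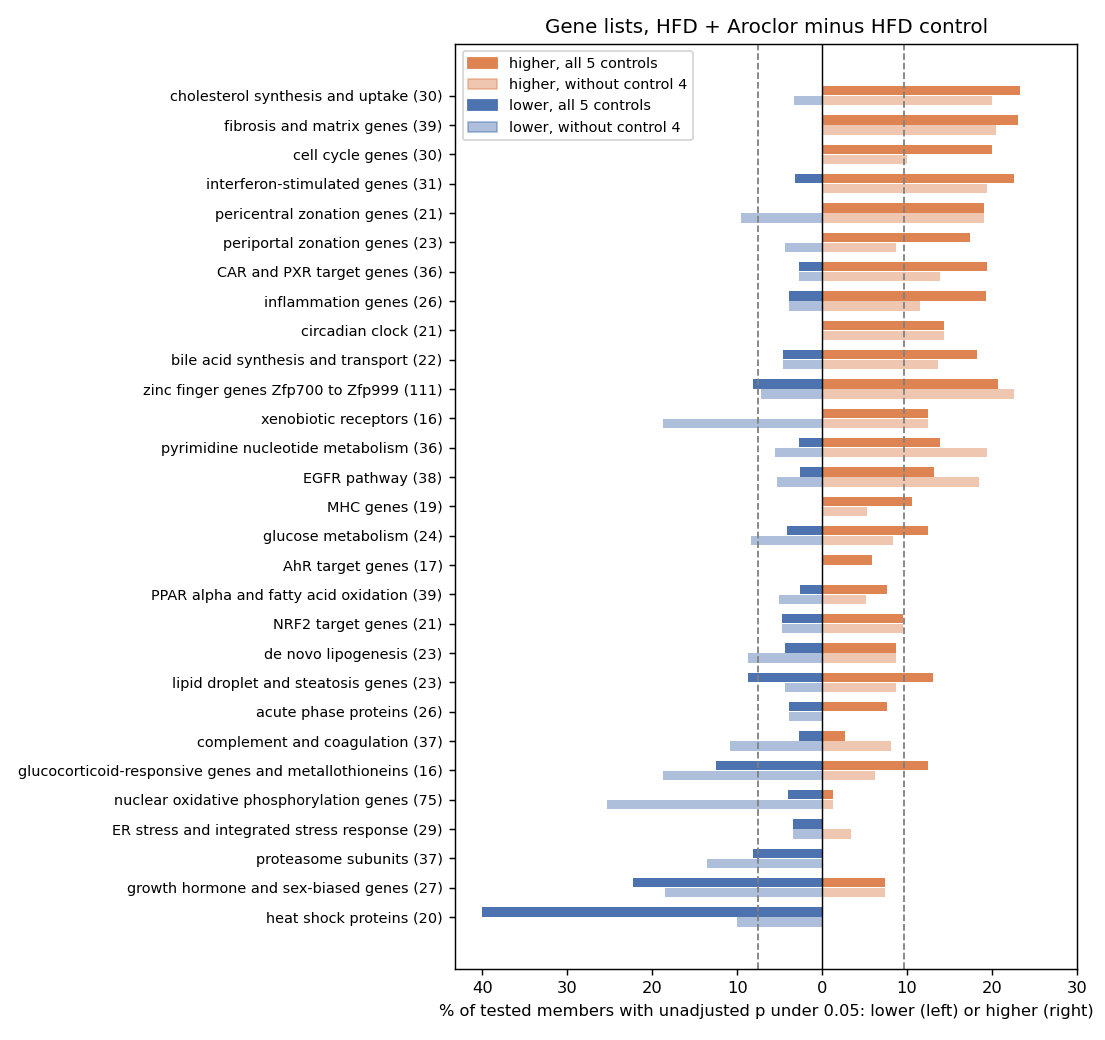
Share of the tested members of each gene list, in percent, that were lower (left) or higher (right) in HFD + Aroclor at an unadjusted p under 0.05, with all 5 control mice (dark bars) and without HFD control replicate 4 (light bars). Dashed lines mark the shares of all genes, 7.6% lower and 9.64% higher, and the list sizes are in brackets.

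The series holds a further measurement of Aroclor 1260 in other mice, the combined exposure against PCB 126 alone, which shares no library with the comparison above. There, 2589 genes (16.7%) passed an adjusted p under 0.05 in edgeR and 17.3% were higher and 18.3% lower at an unadjusted p under 0.05, while DESeq2 called 3697 genes. After GC correction 0 passed the adjusted p in edgeR and 3110 had an unadjusted p under 0.05. Over the 11396 genes with a mean of 1 CPM or more, the log2FC values of the pair of comparisons had a Spearman's rho of 0.586 and a Pearson's r of -0.427 across genes, which are not independent replicates. GC content moved in the same direction in both comparisons. The GC slope of a library was -0.0975 to 0.352 in HFD + PCB 126 and -0.543 to -0.121 in HFD + Aroclor + PCB 126. The part of this shared shift in the likeness of the comparisons was not tested. Both comparisons contain a library with adrenal transcripts, on opposite sides. Without both libraries rho was 0.716 and r was 0.650, and of 2727 genes with an unadjusted p under 0.05 for Aroclor against control, 94.9% had the same sign in the other comparison, against 79.3% of all genes. With GC correction as well, these values were 0.497, 0.434 and, for 1559 genes, 86.5% against 70.5%.

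Single genes gave both outcomes in this second setting. Cyp2b10 had a log2FC of 1.13 there (edgeR adjusted p = 0.266), Bcl6 0.95 (edgeR adjusted p = 0.208) and Adgre1 0.90 (edgeR adjusted p = 0.0307), in the direction seen for Aroclor alone. Fign was at 0.50, Ppargc1a at 0.34, Tfrc at 0.58 and Safb at -0.38, each with an unadjusted p under 0.05 in edgeR. Dnajb1 was at -0.03, Elovl3 at 0.02, Esr1 at 0.13 and Zscan21 at 0.08, all with p above 0.05. Cyp1a1 (-5.87) and Cyp1a2 (-1.04) were lower in the combined exposure than with PCB 126 alone. By list, the oxidative phosphorylation genes had 38 of 75 lower and 1 higher, the inflammation genes 12 of 26 higher and 0 lower, the fibrosis genes 12 of 39 higher and 1 lower, and the CAR and PXR targets 10 of 36 higher and 2 lower, all at an unadjusted p under 0.05 by edgeR. These and the list counts below are read against 17.3% higher and 18.3% lower among all genes in this comparison. They are without GC correction. The heat shock list had 5 of 20 lower and 1 higher, and the growth hormone list 4 lower and 4 higher of 27, near the shares of all genes. Other lists had more lower than higher members there and more higher than lower members for Aroclor alone. Among these, the lower share of the cholesterol genes was near that of all genes, so no lean to the lower side is read from it. The interferon-stimulated genes had 2 higher and 10 lower of 31, the cholesterol genes 1 and 6 of 30, the pericentral genes 1 and 6 of 21, and the MHC genes 0 and 9 of 19. Aroclor alone gave 2 higher and 0 lower MHC genes in edgeR, or 7 and 0 after GC correction. The difference between the Aroclor effects with and without PCB 126, tested as an interaction term, passed an adjusted p under 0.05 for 0 genes (0%) in edgeR, with 1846 at an unadjusted p under 0.05, and for 1 gene in DESeq2.

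Across the fits, 741 genes had an unadjusted p under 0.05 in 1 direction with all libraries, after GC correction, without HFD control replicate 4 and with both changes, 413 higher and 328 lower. Of these, 379 also had an unadjusted p under 0.05 with the same sign between the combined exposure and PCB 126, and 186 did not overlap between the exposed and control mice. That comparison was fitted with all libraries and without GC correction, and its GC slopes were also lower with Aroclor. In it, 17.3% of all tested genes were higher and 18.3% lower at that p. Lack of overlap was found for 1.74% (higher) and 1.2% (lower) of all tested genes. The 741 were chosen by p in the same mice, which favours a lack of overlap. Fign, Ppargc1a and Tfrc are above, and Safb below, in each of the fits that gave the 741.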

How the data were processed

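Liver RNA of 5 HFD control and 5 HFD + Aroclor mice was compared, with 10 libraries of the PCB 126 groups in the same fit. The authors deposited raw counts per Ensembl gene, made from stranded polyadenylated RNA libraries sequenced in 2 runs. Per the submitters' processing notes and the methods, reads were checked with FastQC 0.10.1, aligned to GRCm38.p6 with STAR 2.6 and counted with HTSeq 0.10.0. The annotation release, the strand setting and the run of each library are not given in the sources used here, so genes that overlap another are uncertain. Each library is 1 mouse.

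Genes with at least 10 counts over all libraries were normalized with TMM and tested with edgeR 4.0.16 in R 4.3.3 (quasi-likelihood test, two-sided, 1 coefficient per group, Benjamini-Hochberg adjustment). DESeq2 1.42.0, RLE and upper-quartile scaling, other filters, a replicate block, GC correction (a spline with 6 degrees of freedom per library, as an offset) and each mouse left out in turn were alternatives. The scripts were tested on simulated data. CPM values use the TMM scaling. Cytosolic and mitochondrial ribosomal protein genes were not analysed here, and 1 gene that the rule below names is not reported here.

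The genes named are the 12 higher and 12 lower with the smallest p among genes that averaged 1 CPM or more and did not overlap between the groups, the 5 higher and 5 lower with the largest log2FC by the same filter, a list of xenobiotic genes with Egfr and Cd68, and up to 2 higher and 2 lower members of each list at an unadjusted p under 0.05. Of 123 such genes, 17 overlap another gene. The members and lists were chosen with earlier results of these data known. The adrenal, muscle and brown adipocyte marker lists were chosen after seeing the data. So were the fits without HFD control replicate 4 together with GC correction or without HFD + Aroclor + PCB 126 replicate 4. Coordinates, overlaps and GC content are from GENCODE vM21.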

Additional observations from a re-analysis of the deposited data

Results flagged for a closer look

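Each value in this paragraph lies apart from the other 4 mice of its group, by a gap that is more than 0.71 of the group's whole range (Dixon's test). Of the groups of values tested, 21 (8.33%) had such a mouse, while chance flags about 1 in 20 groups, and 8 of the 21 belonged to HFD control replicate 4. That library had a median correlation of 0.9296 with its group. It was at 11.36 CPM for Adipoq, 8.071 CPM for Plin1 and 168.2 CPM for Fabp4, all fat cell genes. It was at 25.53 CPM for the chaperone gene Hspa1a, 4.386 CPM for Cyp1b1, 5.176 CPM for Cbarp and 7.149 CPM for Zfp235, each above the other control mice. The part of the adrenal and muscle transcripts of this library in these values was not tested.

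Exposed mice stood apart in immune genes. HFD + Aroclor replicate 3 was at 454.6 CPM for Lcn2 and 417.6 CPM for Apcs, both acute phase genes, and HFD + Aroclor replicate 2 was at 33.81 CPM for the interferon-induced gene Gbp2 and 2.917 CPM for the phospholipase gene Pla2g4a. HFD + Aroclor replicate 4 was at 91.25 CPM for Tsc22d3, a glucocorticoid target, and HFD + Aroclor replicate 5 was at 202.5 CPM for Elovl3. HFD + Aroclor replicate 3 was also at 9.533 CPM for Nme6 and 6.673 CPM for Zfp954. In HFD control, replicate 5 was at 18.27 CPM for the AhR target Tiparp, replicate 2 was at 12.38 CPM for the leukocyte gene Ptprc, replicate 1 was at 101.3 CPM for Apcs, and replicate 3 was at 788.8 CPM for the glucuronosyltransferase gene Ugt2b34. HFD control replicate 3 was the low mouse for Timm9, at 38.17 CPM.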

How the results depend on the processing

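The count of 0 genes past an adjusted p under 0.05 for Aroclor against control held under RLE and upper-quartile scaling, other filters, GC correction and only these groups in the fit. DESeq2 gave 135 genes, or 319 with only these groups. Leaving out 1 mouse gave 0 to 2 genes, the 2 without HFD + Aroclor replicate 2. The unadjusted count of 2677 genes ranged from 1993 to 2920 with 1 mouse left out and was 1687 with GC correction and without HFD control replicate 4. Upper-quartile scaling gave 1192 higher and 1577 lower. The 4 genes between PCB 126 and Aroclor were 64 by DESeq2, 2 with only these groups, and 1 to 15 with 1 mouse left out. The 2589 genes between the combined exposure and PCB 126 were 0 after GC correction, 1461 without both libraries with adrenal transcripts, and 4 to 3416 with 1 mouse left out (4 without HFD + PCB 126 replicate 3, 288 without HFD + PCB 126 replicate 4, 954 without HFD + Aroclor + PCB 126 replicate 4 and 269 without HFD + Aroclor + PCB 126 replicate 5). The interaction gave 1 gene by DESeq2. The cause of these shifts was not tested.

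With the replicate number as a block, the Aroclor count was 26 genes (9 higher, 17 lower), or 21 with GC correction. The interaction gave 38 in both fits, all higher, and the combined exposure against PCB 126 with GC correction gave 189. The 17 included the adrenal genes Hsd3b1, Cyp11a1 and Chgb. These were at 559, 324 and 682 CPM in HFD control replicate 4 and at most 0.0333 CPM in HFD + Aroclor. The other library with adrenal transcripts, HFD + Aroclor + PCB 126 replicate 4, has the same replicate number. The part of adrenal transcripts in these counts was not tested. Deviations of same-numbered HFD control and HFD + Aroclor mice correlated by -0.12 to 0.35, and 1 of 5 control mice correlated best with its own number. So few pairs cannot decide whether the numbers pair the mice.

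Of 123 named genes, 115 had the same direction in every fit. Most of the 123 were named for a small p or a lack of overlap in the same mice, which favours a stable direction. The genes that changed direction were mostly near 0, and most were xenobiotic genes named without regard to p. Values past 0 were -0.0075 for Nqo1, -0.0370 for Ugt2b34, -0.0569 for Cyp3a11 and 0.550 for Cyp1b1 with GC correction and without HFD control replicate 4. GC correction gave -0.0183 for Ahrr, 0.0332 for Nr1i2 and 0.0207 for Cyp1a2, and upper-quartile scaling -0.0075 for Ahrr. The replicate block gave 0.138 for Cyp1b1, and with GC correction 0.0779 for Cyp1b1 and 0.0474 for Nr1i2. With 1 mouse left out, the log2FC was -0.28 to 0.71 for Ahrr, -0.13 to 0.0383 for Nr1i2, -0.50 to 0.63 for Cyp1b1, -0.13 to 0.12 for Cyp1a2 and -0.32 to 0.0542 for Nr1i3. A gene at 1 CPM had over 20 counts in each library, and the median standard error of 0.15 limits what could be called.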
